A study of Arabidopsis thaliana with 6 samples.

Results

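A group of 42 Arabidopsis thaliana genes that copy DNA during S phase, or control entry into it, was examined among the 33602 genes of an RNA sequencing table. They were chosen by locus and comprise the origin recognition complex (ORC), CDC6 and CDT1, the MCM2 to MCM7 helicase with CDC45 and GINS subunits, the replicative polymerases and primase, PCNA and its partners, enzymes of nucleotide supply, chromatin assembly factor 1, and the E2F and RBR1 regulators. Poly(A) RNA came from germinating seeds of the line scl30a-1 (3 libraries) and of the wild type Col-0, called WT (3 libraries), both in the Columbia background. Seeds (50 mg) were kept at 4 degrees Celsius for 3 days and then spent 18 h at 21 degrees Celsius under constant white light. The light level was 100 µmol per square metre for all samples. SCL30A encodes a serine/arginine-rich splicing factor. A single mutant line was measured, and the labels do not say what its lesion is. They name no seed lot or batch, so genotype and batch cannot be told apart.

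Before a cell divides, ORC marks replication origins and, with CDC6 and CDT1, loads the MCM2 to MCM7 ring onto DNA. CDC45 and GINS turn the ring into a running helicase behind which polymerases alpha, delta and epsilon copy the strands. The sliding clamp PCNA holds polymerases delta and epsilon. In plants, as in animals, E2F transcription factors switch on many of these genes and are held in check by the retinoblastoma protein, RBR1 in Arabidopsis. In germinating Arabidopsis seeds the root meristem re-enters the cell cycle around the time the radicle emerges.

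Total counts were 77817191 to 85605647 per scl30a-1 library and 70687361 to 84356746 per WT library. SCL30A itself (AT3G13570), the check of the line, had 5.59, 5.72 and 5.9 CPM (read counts scaled to library size by the TMM method) in scl30a-1 libraries, against 96.4, 95.1 and 96.9 CPM in WT libraries. Seed maturation markers (2S albumin AT2S1, cruciferin CRA1, EM1, EM6 and OLEO1) were called higher in 5 of 5 cases, with a summed level of 5682 to 6545 CPM in scl30a-1 and 737 to 953 CPM in WT. Of 4 endosperm markers, EPR1 and MAN7 were called higher, MAN2 was called lower and EXPA2 was not called, and their sum was 2288 to 2364 CPM in scl30a-1 and 1614 to 1709 CPM in WT. No marker of these lists was at 0 in all libraries. The part that this seed state plays in the values given here was not tested. In RNA from whole seeds, fewer cells of a type and less RNA per cell cannot be told apart.

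Many of the genes share a promoter word. The stretches shown are those of 5 subunits of the MCM ring and of 3 genes whose RNA level differed between the genotypes in opposite directions. Capitals mark the E2F words TTTCCCGC or TTTGGCGC, or their reverse complements GCGGGAAA and GCGCCAAA. All lie upstream of the annotated gene start (RefSeq, TAIR10.1, whose nuclear chromosomes are those of TAIR10) and are read 5′ to 3′ along the gene.
MCM2, chr1:16970174-16970213, plus strand: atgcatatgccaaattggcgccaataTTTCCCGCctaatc
MCM3, chr5:18773843-18773902, minus strand: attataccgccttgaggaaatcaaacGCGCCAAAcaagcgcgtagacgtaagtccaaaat
MCM4, chr2:7130731-7130790, minus strand: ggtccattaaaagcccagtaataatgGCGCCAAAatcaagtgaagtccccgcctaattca
MCM5, chr2:3527501-3527545, minus strand: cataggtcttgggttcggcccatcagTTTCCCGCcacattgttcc
MCM6, chr5:18010680-18010739, minus strand: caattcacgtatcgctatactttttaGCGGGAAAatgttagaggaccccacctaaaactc
FAS1, chr1:24324125-24324245, minus strand: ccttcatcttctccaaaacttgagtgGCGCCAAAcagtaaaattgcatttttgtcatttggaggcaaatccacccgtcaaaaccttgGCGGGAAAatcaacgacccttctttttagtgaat
FEN1, chr5:9315551-9315593, minus strand: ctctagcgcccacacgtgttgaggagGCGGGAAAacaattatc
RBR1, chr3:3919402-3919461, minus strand: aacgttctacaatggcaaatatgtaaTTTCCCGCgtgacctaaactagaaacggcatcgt

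A search of both strands for TTTCCCGC, TTTGGCGC, TTTCGCGC and TTTGCCGC, from 250 bases before to 50 bases after the gene start, found at least 1 word in 19 of the 42 genes (45.2%). The same search found one in 483 of 27443 protein-coding genes (1.76%). The 19 were ORC1A, ORC2, ORC3, ORC4, CDC6B, MCM2 to MCM6, PSF2, POLA1, POLA2, PRIM1, FEN1, RNR1, FAS1, FAS2 and RBR1. The shorter words TGGGCC and TGGGCT, which can share at most 1 end base with an E2F word, were present in 23 of 42 windows (54.8%) and in 21.7% of all protein-coding windows. A word is a match of letters and not a binding site.

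The genes moved in both directions, mostly by little. Of the 42, all had enough counts to be tested, 7 were called higher and 8 lower in scl30a-1, and 27 were not called (edgeR quasi-likelihood test, adjusted p under 0.05 over 18736 genes). Across all genes tested, 41.7% were called, 21.9% higher and 19.7% lower, beside 35.7% of this group. The difference between these shares was not tested, and the number called in the group changed with the setting. The median log2 fold change (scl30a-1 over WT) was 0.0061 in the group and 0.0027 over all genes, with a range in the group from -0.79 to 0.47. A called difference of at least 1.5-fold was reached by 1 of the 42, against 12.2% of all genes. The libraries of the genotypes did not overlap for 21 of the 42 (50%), against 52.1% of all genes. The balance of directions rested on the scaling: upper-quartile scaling gave 5 higher and 13 lower, while the share of higher calls over all genes went down to 36% from 52.6%. Of the 15 called genes, 9 were called in every one of 15 other settings. These were ORC4, FEN1, E2FC and RBR1, which rose, and CDC45, FAS1, CDC6A, TSO2 and TK1A, which fell. Of the 27 genes not called, 13 were called in at least 1 of the other settings. These settings included an adjusted p under 0.01, and the matching shares over all genes were not computed.

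**Figure D1:**
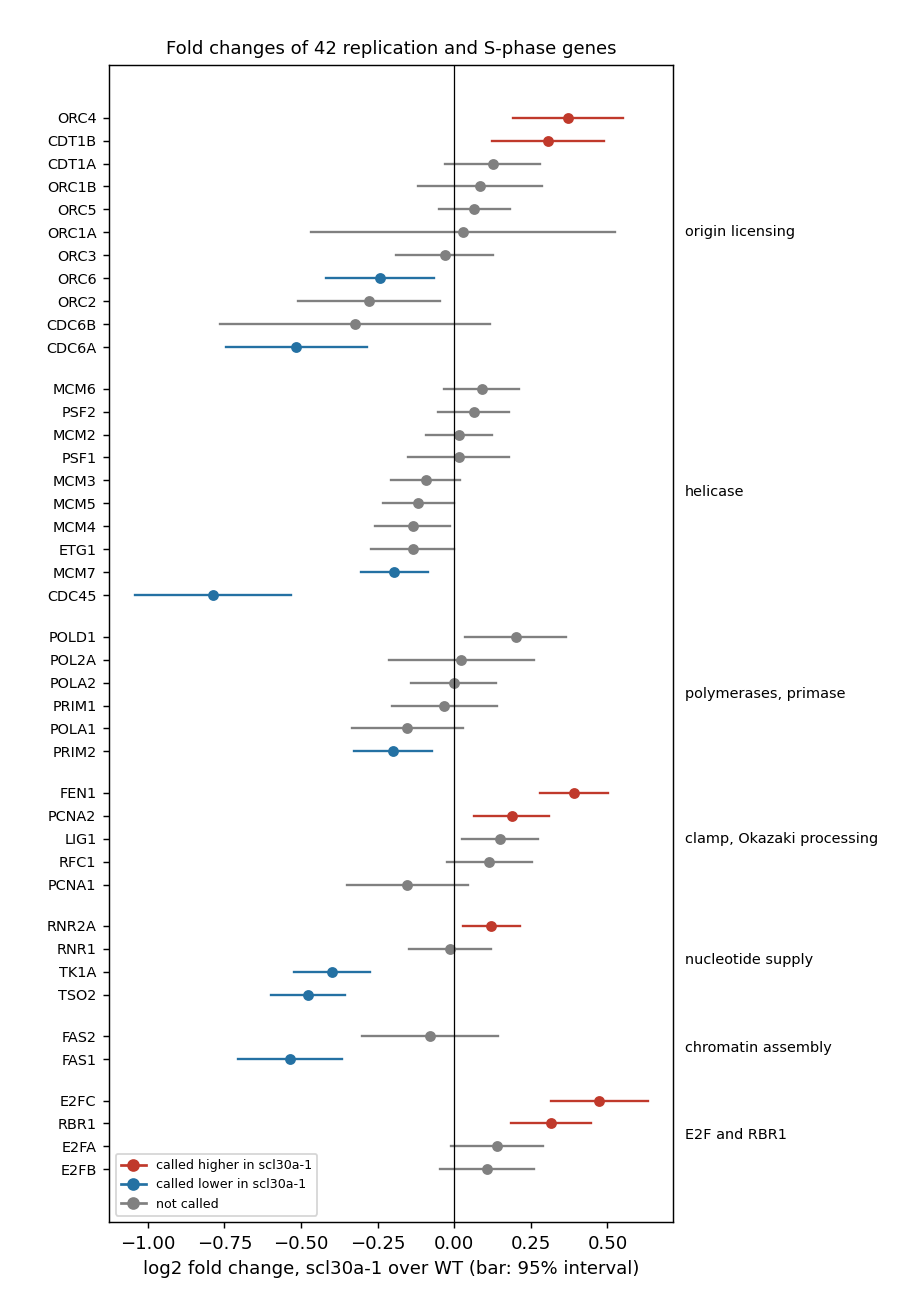
Log2 fold change (scl30a-1 over WT, x axis) of each of the 42 genes, grouped by role, with 95% intervals. Red points were called higher and blue points lower in scl30a-1 (edgeR adjusted p under 0.05), and grey points were not called; CDC45 lies farthest left at -0.79 and E2FC farthest right at 0.47.

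Origin licensing genes moved in both directions, with 2 of 11 called higher and 2 lower (36.4%, beside 41.7% of all genes). ORC4 (AT2G01120), an ORC subunit, had 8.97, 8.06 and 8.74 CPM in scl30a-1 libraries, against 6.79, 6.01 and 7.13 CPM in WT libraries. All 3 mutant libraries lay above all WT libraries, and the log2 fold change was 0.37 (SE 0.0806, adjusted p = 0.0047). ORC6 (AT1G26840), the smallest ORC subunit, was lower without overlap, at 3.87, 4.03 and 4.18 CPM in scl30a-1 and 4.52, 4.76 and 4.98 CPM in WT (log2 fold change -0.24, SE 0.079, adjusted p = 0.0321). This call was lost without either of 2 mutant libraries or WT library b or c (adjusted p = 0.0532 to 0.109). The other ORC subunits were not called, and their log2 fold changes were -0.28 for ORC2 (95% interval -0.51 to -0.05), -0.03 for ORC3, 0.07 for ORC5 and 0.08 for ORC1B. ORC2 lay just past the threshold (adjusted p = 0.0534), was lower without overlap and was called lower in 6 of 15 other settings.

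CDC6 and CDT1, the loaders of the MCM ring, each have a pair of genes in Arabidopsis. CDC6A (AT2G29680) had 2.07, 2.08 and 1.98 CPM in scl30a-1 libraries, against 2.63, 2.94 and 3.19 CPM in WT libraries. The mutant libraries were alike and all below the lowest WT library (log2 fold change -0.52, SE 0.103, adjusted p = 0.00285). CDC6B (AT1G07270) was scarce, with 39, 45 and 58 counts in scl30a-1 and 49, 56 and 70 counts in WT, and the groups overlapped (log2 fold change -0.32, 95% interval -0.76 to 0.12, adjusted p = 0.216). CDT1B (AT3G54710) went the other way and had 12.4, 10.3 and 11.7 CPM in scl30a-1 libraries and 8.55, 9.63 and 9.55 CPM in WT libraries. Its rise (log2 fold change 0.31, SE 0.0818, adjusted p = 0.0132) was not called without scl30a-1 library a (0.0597) or WT library a (0.0511). CDT1A (AT2G31270) had 13.8, 12.6 and 14.8 CPM in scl30a-1 and 12.1, 12.3 and 13.3 CPM in WT, which overlapped (log2 fold change 0.13, adjusted p = 0.177). It was called higher without scl30a-1 library b (0.0456).

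The MCM2 to MCM7 ring, the motor of the replicative helicase, had log2 fold changes between -0.20 and 0.09, and 1 of its 6 genes was called. That share is 16.7%, beside 41.7% of all genes. With upper-quartile scaling MCM3, MCM4, MCM5 and MCM7 were called lower. MCM5 was also called lower without composition scaling, and MCM4 with the GC and length trend removed. MCM7 (AT4G02060, also PROLIFERA) had 22.4, 21.6 and 22.5 CPM in scl30a-1 libraries, against 24.7, 26.5 and 25 CPM in WT libraries. The groups did not overlap, and the log2 fold change was -0.20 (SE 0.0495, adjusted p = 0.0104; 0.0551 without WT library b). For MCM2 the log2 fold change was 0.01, with a 95% interval of -0.09 to 0.12. MCM6 stood at 0.09 (-0.03 to 0.21), MCM3 at -0.09 (-0.21 to 0.02), MCM5 at -0.12 (-0.23 to -0.00) and MCM4 at -0.14 (-0.26 to -0.01), and none of these was called with TMM scaling alone. MCM7 had no E2F word in its window, whereas the other 5 genes had at least 1. Any link between the word and these calls was not tested.

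CDC45 (AT3G25100), which joins the ring to form the active helicase, differed most of the 42 genes. It had 1.92, 2.17 and 2.33 CPM in scl30a-1 libraries, against 3.67, 4.11 and 3.31 CPM in WT libraries, from 164 to 181 and 262 to 315 counts. Every mutant library was well below every WT library (0.579-fold, log2 fold change -0.79, SE 0.114, adjusted p = 0.000425). The GINS subunits PSF1 (log2 fold change 0.01, 95% interval -0.15 to 0.18) and PSF2 (0.06, -0.05 to 0.18) were not called. ETG1, an MCM-binding protein first described as an E2F target, was not called either (-0.14, -0.27 to -0.00, adjusted p = 0.0998).

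Of 6 polymerase and primase genes, 1 was called (16.7%, beside 41.7% of all genes). PRIM2 (AT1G67320), the large primase subunit, had 10.8, 10.6 and 10.6 CPM in scl30a-1 libraries and 11.8, 12.7 and 12.3 CPM in WT libraries. It was lower without overlap (log2 fold change -0.20, SE 0.0564, adjusted p = 0.0173; 0.0785 without WT library b). The other primase subunit, PRIM1, and the polymerase alpha subunit POLA2 had log2 fold changes of -0.03 and -0.00. The catalytic subunits were POLA1 of polymerase alpha at -0.15 (95% interval -0.34 to 0.03), POLD1 of polymerase delta at 0.20 (0.04 to 0.37, adjusted p = 0.0522) and POL2A of polymerase epsilon at 0.02 (-0.21 to 0.26). POL2A had 23.9, 18.7 and 23.1 CPM in scl30a-1 libraries and 19.1, 21.4 and 24.1 CPM in WT libraries, so its libraries spread within each genotype more than between them.

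Long transcripts varied between libraries of the same genotype. The median deviation of genes of at least 2355 nt minus that of genes of at most 1255 nt, in log2 units, was lowest in scl30a-1 library b (-0.14; 0.03 in a and 0.06 in c). In WT it was -0.09 in library a, 0.00 in b and 0.13 in c. With the trend of GC content and transcript length removed from each library, 12 of the 42 genes were called higher in place of 7. The 5 added were ORC5, CDT1A, POLD1, RFC1 and LIG1. With the same removal 12 were called lower in place of 8. Calls over all genes rose too, from 4106 to 5011 higher and from 3700 to 4494 lower.

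Among the sliding clamp and the enzymes that finish Okazaki fragments, 2 of 5 genes rose and none fell, a share called of 40% beside 41.7% of all genes. FEN1 (AT5G26680), the flap nuclease that trims primers off the lagging strand, had 55, 55.4 and 50.7 CPM in scl30a-1 libraries, against 41.8, 40 and 41 CPM in WT libraries. The gap between the groups was several times the spread within them (1.31-fold, log2 fold change 0.39, SE 0.0494, adjusted p = 0.000167). LIG1, which seals the fragments, and RFC1, the large subunit of the clamp loader, had log2 fold changes of 0.15 (adjusted p = 0.0533) and 0.11 (adjusted p = 0.165). PCNA2 (AT2G29570) had 35.3, 37.9 and 34.1 CPM in scl30a-1 libraries, against 31.4, 32.8 and 30.1 CPM in WT libraries. It was called higher (log2 fold change 0.19, SE 0.055, adjusted p = 0.0207), but not without WT library a (0.0561) or c (0.0839) nor with upper-quartile scaling (0.101), and 21.8% of its 36-base words occur in other transcripts, those of the overlapping AT2G29560 and of PCNA1. PCNA1 (AT1G07370), the other clamp gene, had 17.7, 21.8 and 17.3 CPM in scl30a-1 and 21.4, 22.2 and 19.7 CPM in WT. Its groups overlapped through scl30a-1 library b (log2 fold change -0.15, adjusted p = 0.192), without which it was called lower (0.00574), as it was with the GC and length trend removed (0.012).

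Nucleotide supply held the most abundant genes of the group and 2 of its clear falls. Of its 4 genes, 1 was called higher and 2 lower (75%, beside 41.7% of all genes). TSO2 (AT3G27060), a small subunit of ribonucleotide reductase, had 199, 224 and 209 CPM in scl30a-1 libraries, against 296, 288 and 296 CPM in WT libraries. All mutant libraries were low (0.718-fold, log2 fold change -0.48, SE 0.0545, adjusted p = 8.82e-05). RNR2A (AT3G23580), a second small subunit gene, had 158, 156 and 156 CPM in scl30a-1 libraries and 144, 142 and 145 CPM in WT libraries. Its small rise (log2 fold change 0.12, SE 0.0423, adjusted p = 0.0419) was lost without any 1 of the 6 libraries and with each other scaling (adjusted p = 0.0503 to 0.326). RNR1, the large subunit to which both bind, had a log2 fold change of -0.01 (95% interval -0.15 to 0.12). Thymidine kinase TK1A (AT3G07800), of the thymidine salvage route, had 11.9, 13 and 12.1 CPM in scl30a-1 libraries, against 16.1, 16.6 and 16.2 CPM in WT libraries. It was lower in every mutant library (log2 fold change -0.40, SE 0.0551, adjusted p = 0.00031).

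Chromatin assembly factor 1 places histones behind the fork. FAS1 (AT1G65470), its large subunit, had 6.89, 7.1 and 7.09 CPM in scl30a-1 libraries, against 9.22, 10.3 and 11 CPM in WT libraries. The mutant libraries were close together and below all WT libraries (0.69-fold, log2 fold change -0.54, SE 0.0754, adjusted p = 0.000348). FAS2, the middle subunit, was not called at -0.08 (95% interval -0.30 to 0.14). The share called was thus 1 of 2 genes (50%, beside 41.7% of all genes).

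All 4 regulators had log2 fold changes above 0 under each scaling tried, and 2 were called (50%, beside 41.7% of all genes). E2FC (AT1G47870), an E2F known mainly as a repressor of division, had 12.4, 11.5 and 11.7 CPM in scl30a-1 libraries, against 8.44, 7.92 and 9.26 CPM in WT libraries. All mutant libraries were high (1.39-fold, log2 fold change 0.47, SE 0.0708, adjusted p = 0.000519). RBR1 (AT3G12280), the retinoblastoma protein that binds E2F factors, had 76.5, 69 and 74.9 CPM in scl30a-1 libraries, against 56.7, 57.3 and 63.1 CPM in WT libraries. It too was higher without overlap (log2 fold change 0.32, SE 0.0587, adjusted p = 0.00195). The activating factor E2FA (AT2G36010) had 6.62, 6.44 and 6.33 CPM in scl30a-1 and 5.97, 5.66 and 5.98 CPM in WT (log2 fold change 0.14, adjusted p = 0.126). E2FB (AT5G22220), the other activator, had 15.3, 13.2 and 15.2 CPM in scl30a-1 and 13.7, 12.9 and 14 CPM in WT, which overlapped (0.11, adjusted p = 0.243).

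**Figure D2:**
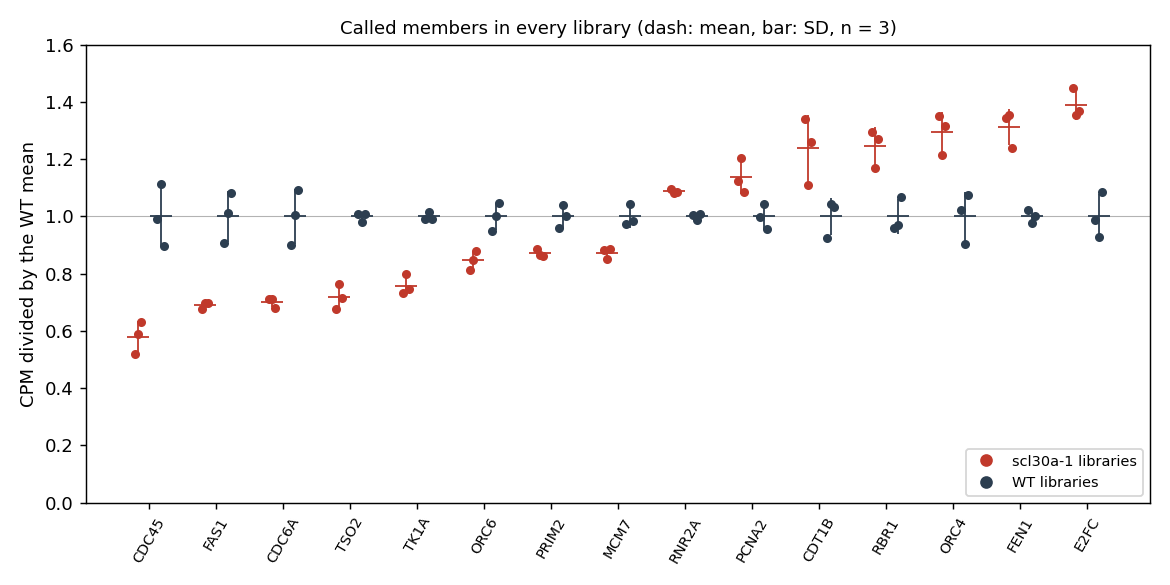
CPM in each library divided by the WT mean of that gene (y axis) for the 15 called genes, with scl30a-1 libraries in red left of WT libraries in dark blue. Dashes are means and bars SDs over 3 libraries. In all 15 genes the genotypes do not overlap, against 52.1% of all genes tested, but the 15 were picked by their calls in these same values.

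The genes with an E2F word did not all move alike. Of these 19, 3 were called higher (ORC4, FEN1 and RBR1) and 1 lower (FAS1). Of the 23 without, 4 were called higher and 7 lower, among them CDC45, TSO2, TK1A and CDC6A. The share called was 21% with the word and 47.8% without, beside 41.7% of all genes. The median log2 fold change was -0.03 with the word and 0.07 without. The difference between the 2 sets was not tested.

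Levels were compared between genes as CPM per kilobase of the longest annotated transcript. TSO2 averaged 124.5 ± 7.56 CPM per kilobase in scl30a-1 and 173 ± 2.68 in WT (SD, n = 3 each), the highest level of the group in both. RNR2A followed with 92.6 CPM per kilobase in scl30a-1 and 85.1 in WT, and RNR1 with 75.3 in scl30a-1 and 76 in WT. In each genotype these 3 levels were apart by more than the range of their libraries, whereas FEN1 and RFC1, further down, overlapped in WT. The MCM2 to MCM7 genes lay between 5.24 CPM per kilobase (MCM6) and 9.96 (MCM2) in scl30a-1 and between 4.92 (MCM6) and 10.9 (MCM4) in WT, and the libraries of MCM2 and MCM7 overlapped in WT. At the low end stood CDC45 with 0.923 CPM per kilobase in scl30a-1 and 1.59 in WT, and CDC6B with 0.306 in scl30a-1 and 0.38 in WT. ORC1A was lowest with 0.165 CPM per kilobase in scl30a-1 and 0.162 in WT. Its value is uncertain, since 37.1% of its 36-base words occur in other transcripts, those of overlapping genes and of ORC1B. The median of the 42 genes was 6.42 CPM per kilobase in scl30a-1 and 6.25 in WT, against 9.48 in scl30a-1 and 9.13 in WT for all genes tested.

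**Figure D3:**
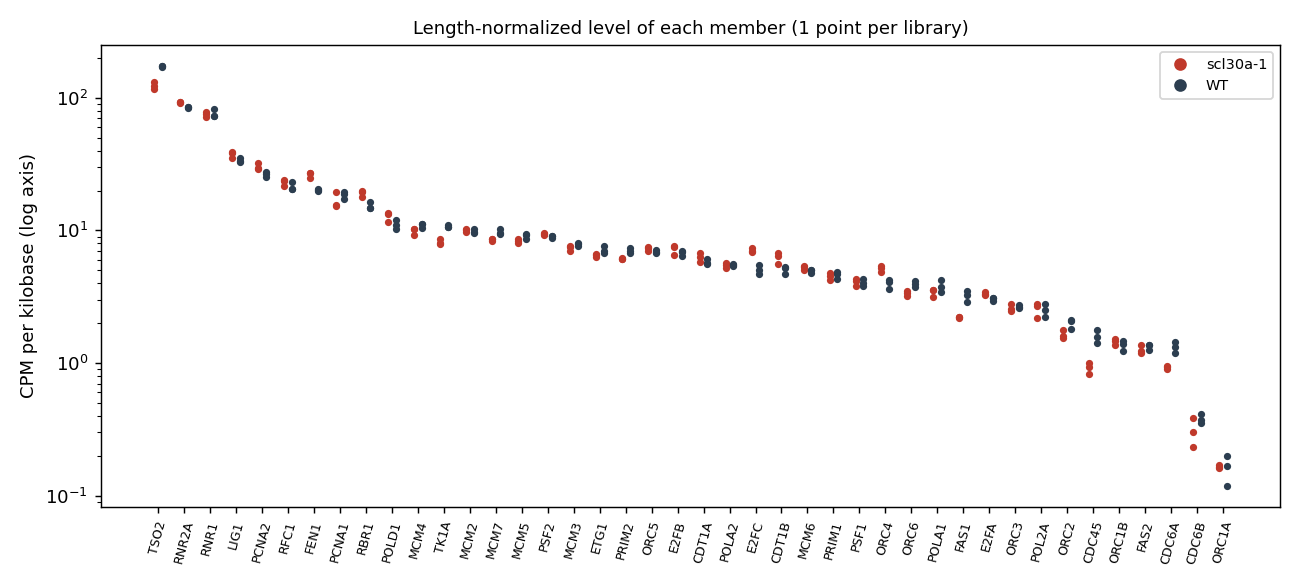
Level of each of the 42 genes in CPM per kilobase (log axis), ordered by the WT mean, with 1 point per library and scl30a-1 in red left of WT in dark blue. The ribonucleotide reductase genes TSO2, RNR2A and RNR1 are highest and ORC1A, at 0.165 in scl30a-1 and 0.162 in WT, lowest.

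Several functions are shared by paralogues, and the share of 1 gene in the summed CPM per kilobase of its pair was compared over libraries. TSO2 made up 57.3% ± 1.64 of TSO2 plus RNR2A in scl30a-1 and 67.1% ± 0.118 in WT (SD, n = 3 each, 2-sided exact permutation p = 0.1). PCNA1 made up 35.6% ± 1.78 of both clamp genes in scl30a-1 and 41.3% ± 0.527 in WT (exact permutation p = 0.1, n = 3 each). CDT1B made up 49.8% ± 1.7 of its pair in scl30a-1 and 46.7% ± 1.35 in WT (exact permutation p = 0.1, n = 3 each). In these 3 pairs the libraries of the genotypes did not overlap, and 0.1 is the smallest p that 3 against 3 libraries can give. CDC6B held 24.7% ± 4.98 of its pair in scl30a-1 and 22.3% ± 0.409 in WT, and ORC1A 10.2% ± 0.532 in scl30a-1 and 10.7% ± 3.18 in WT, with overlap (exact permutation p = 0.7 for each, n = 3 each). Adjusted over the 5 pairs, the lowest p was 0.167.

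**Figure D4:**
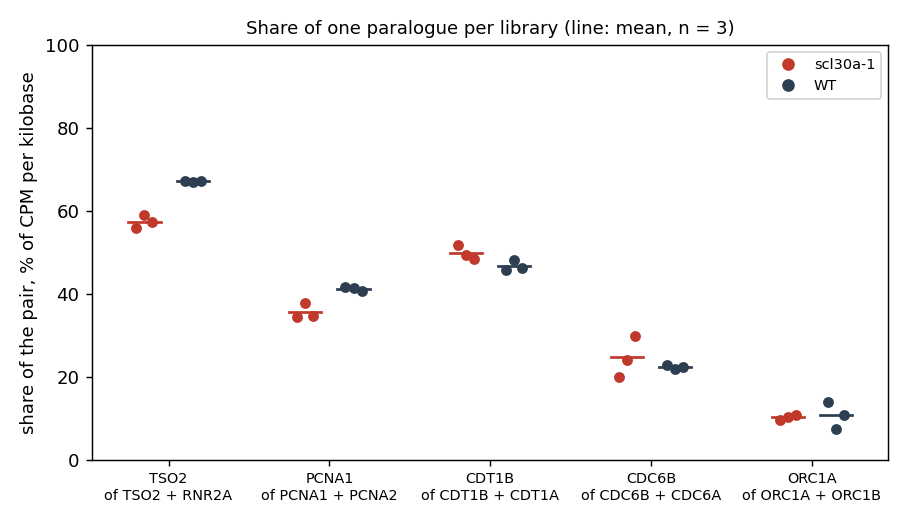
Share of 1 paralogue in its pair, in percent of their summed CPM per kilobase (y axis), per library, with scl30a-1 in red left of WT in dark blue and lines at the means. TSO2 averages 57.3% in scl30a-1 and 67.1% in WT, and the points of ORC1A and CDC6B overlap.

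Further genes of the replication fork, 33 in all, gave 6 called higher and 10 lower. The share called was 48.5%, near the 41.7% of all genes. DNA topoisomerase II (TOPII, AT3G23890), which untangles sister DNA and peaks at mitosis, had 0.608, 0.533 and 0.528 CPM in scl30a-1 libraries and 3.04, 3.59 and 3.47 CPM in WT libraries. That was the widest gap of the list (log2 fold change -2.59, SE 0.128, adjusted p = 1.91e-07). Of replication protein A, which coats single-stranded DNA, 5 of 9 subunit genes were called lower and 1 higher (named after their values were seen). The share called was 66.7%, beside 41.7% of all genes. RPA2B had the smallest p (log2 fold change -0.46, SE 0.057, adjusted p = 0.000147). The gene of the dihydrofolate reductase and thymidylate synthase THY1 fell by 0.46 on the log2 scale (adjusted p = 0.000155). The polymerase delta subunit POLD3 rose (0.36, adjusted p = 0.000685), as did MCM8 (0.67, adjusted p = 0.000872), a helicase of recombination. The number called higher rested on the setting and was 2 with upper-quartile scaling.

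Among 16 S-phase regulators outside the group, 5 were called higher and 6 lower (68.8%, beside 41.7% of all genes). The E2F-like repressors DEL1, DEL2 and DEL3, which lack the retinoblastoma-binding region, were all called lower (3 of 3, beside 19.7% of all genes called lower). DEL3 (AT3G01330, also E2FF) had 1.8, 1.95 and 2.13 CPM in scl30a-1 libraries, against 5.82, 5.78 and 6.07 CPM in WT libraries (log2 fold change -1.59, SE 0.089, adjusted p = 4.82e-07), and DEL1 changed by -0.50 (adjusted p = 0.000529). The A-type cyclins CYCA2-3 (-0.73, adjusted p = 6.21e-05), CYCA3-1 (-0.44, adjusted p = 0.0223) and CYCA3-2 (-0.35, adjusted p = 0.00132) fell, 3 of 3 in this list. The DEL genes and these cyclins are small subsets of the 16 genes, and their shares were not tested against that of all genes. Of 7 KRP genes, which encode inhibitors of cyclin-dependent kinases, 4 rose and none fell (57.1%, beside 41.7% of all genes). KRP6 had the smallest p (0.42, adjusted p = 0.000425). KRP4 also rose, but 37.4% of its 36-base words occur in other transcripts, among them that of the overlapping AT2G32720. With library totals alone, and likewise with upper-quartile scaling, the list had 3 genes higher and 6 lower.

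Mitotic genes were mostly lower in scl30a-1. Of 15 listed, 9 had enough counts, and 8 of these were called lower and none higher, with a median log2 fold change of -1.34. The share called was 88.9% of the tested, beside 41.7% of all genes (19.7% lower). The mitotic kinase CDKB1-2 had 0.76, 0.559 and 0.773 CPM in scl30a-1 libraries, against 3.41, 3.61 and 3.97 CPM in WT libraries (log2 fold change -2.39, SE 0.135, adjusted p = 5.3e-07). CDKB2-1 (-1.34), CDKB2-2 (-1.78), CYCA1-1 (-2.28) and the microtubule bundler PLE (-1.51) also fell. Their levels were low, the 15 genes summing to 16.9 to 18.7 CPM in scl30a-1 and 32.7 to 35.3 CPM in WT, and the 6 untested genes had at most 12 counts in any library. The difference between the 2 lists was not tested.

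**Figure D5:**
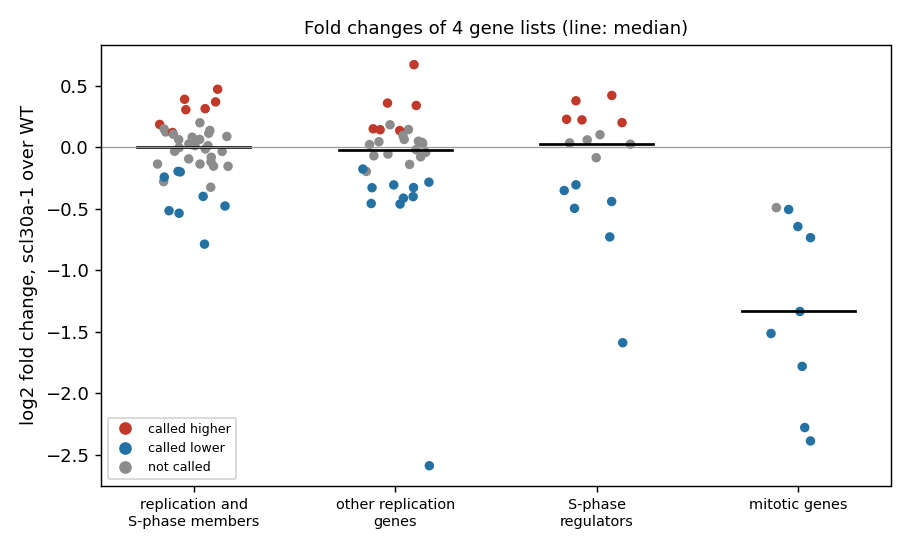
Log2 fold change (scl30a-1 over WT, y axis) of each tested gene of the 42 replication and S-phase genes, 33 other replication genes, 16 S-phase regulators and 9 mitotic genes, with lines at the medians. The medians are 0.0061, -0.02, 0.03 and -1.34 from left to right.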

How the data were processed

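RNA sequencing of poly(A) RNA gave 3 libraries per genotype, described as biological triplicates in the series' design text. The authors deposited 1 table with raw counts of reads for each gene and library, per the file headers. The build was TAIR10, per the submitters' processing notes. The aligner, the filters and the use of strand are not given in the sources used here, so reads of overlapping genes may be shared. Columns name the genotype and a letter, not the labels' replicate numbers, so they could be tied to a genotype only. Only 1 measure per genotype was kept, the counts, so 6 further columns of length-normalized values were not used. Levels per length were computed from the counts. The extraction protocol speaks of whole seedlings. Of 33602 genes, 1213 had no value.

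Counts were tested with edgeR 4.0.16 (glmQLFit and glmQLFTest, R 4.3.3, TMM scaling, filterByExpr at a minimum count of 10, Benjamini-Hochberg adjustment), with genotype as the only term. The fit was checked on simulated counts in which few genes changed, in both directions. That check therefore does not bear on the choice of scaling. SEs are the unshrunken coefficient over the square root of F. Library pairs differed beyond sampling noise (chi-square per degree of freedom at least 5.45). Intervals cover the spread between these libraries only. Alternatives used DESeq2 1.42.0 and limma 3.58.1.

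The genes and lists were chosen with earlier results of these data known. Per-library values are given for the 8 largest called rises and falls, paralogue pairs, the E2F genes and RBR1, and for at most 5 called genes of each further list. Shared sequence was counted as 36-base words on either strand.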

Additional observations from a re-analysis of the deposited data

How the results depend on the processing

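No paired analysis was possible because the columns carry letters, which no source ties to the replicate numbers of the labels. A fit with the letters as blocks was not made. Over 15 settings, 38 named genes gave 570 values, of which 535 kept direction and side of the threshold, 27 were weaker, 5 stronger and 3 reversed. The reversed values were those of ORC1A, which was not called, at -0.0198 without composition scaling, -0.0392 with upper-quartile scaling and -0.148 without WT library b (its range with 1 library left out was -0.148 to 0.188). The 7 genes called higher became 12 with the GC and length trend removed and 4 at an adjusted p under 0.01, and 4 to 10 with 1 library left out (4 without WT library a). The 8 called lower became 13 with upper-quartile scaling and 5 at an adjusted p under 0.01. With the trend removed, calls over all genes rose as well, from 7806 to 9505. Over all 42 genes the median log2 fold change, 0.0061, became -0.0421 without composition scaling, -0.0617 with upper-quartile scaling and 0.0329 with the trend removed, and ranged from -0.0212 to 0.0333 with 1 library left out. The median of all genes moved alongside, to -0.0449 and -0.065 under the first 2 of these. The 6 other replication genes called higher became 2 under both of these scalings and at an adjusted p under 0.01, 3 without the filter and with DESeq2, and 2 to 4 with 1 library left out. Over all genes, 7806 calls became 5008 at an adjusted p under 0.01 (2261 lower), by construction. The planned tests on log2 length-normalized values were not run, since those columns were not used. The cause of the other moves was not tested. The scarcest of the 42 genes, ORC1A, had 23 to 37 counts per library and a 95% interval of -0.47 to 0.52.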
